A study of Mus with 18 samples.

Results

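TGF-beta signalling in mouse lens epithelial cells (LECs) after lens injury was followed through 8 genes: the TGF-beta ligands Tgfb1 (ENSMUSG00000002603), Tgfb2 (ENSMUSG00000039239) and Tgfb3 (ENSMUSG00000021253), the activin subunit Inhba (ENSMUSG00000041324), the receptors Tgfbr1 (ENSMUSG00000007613) and Tgfbr2 (ENSMUSG00000032440), and the feedback regulators Smad7 (ENSMUSG00000025880) and Skil (ENSMUSG00000027660). They were taken by their Ensembl IDs from 55416 gene IDs, of which 35202 had a count in at least 1 of the 18 libraries, and all 8 had counts in every library. LECs came on lens capsules from wild-type (WT), Egr1KO and FosBcKO mice, labelled as strain C57BL/6, of both sexes and 3 to 5 months old. Egr1KO mice lack functional Egr1 in the whole body, through a neo cassette that truncates the protein. FosBcKO mice carry floxed Fosb exons 2 and 3 and the MLR10 Cre transgene, whose modified alpha-A crystallin promoter drives Cre in the lens, so other ocular cells keep Fosb. In each genotype the lens fiber mass was taken out by surgery and LECs were sampled at once (0 h) or 6 h post cataract surgery (PCS), with 3 libraries a group and 5 pooled capsules a library. The surgery leaves the LECs on their capsule inside the eye, and a mouse had its second eye operated 6 h after its first and both capsules collected then, so the 0 h eye belonged to an animal already injured in the other eye.

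Cells secrete TGF-beta in a latent form bound to matrix, and once freed it joins type II and type I receptor kinases, which phosphorylate Smad proteins that enter the nucleus and alter transcription. Activins, dimers of inhibin beta subunits, use receptors of their own and the same Smads. In the lens, TGF-beta is known for driving LECs towards myofibroblasts, the cells of fibrotic posterior capsular opacification, and Smad7 and SnoN, the product of Skil, restrain the signal.

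Levels are counts per 1000000 counted read pairs (CPM), and fold changes and tests are from edgeR on the raw counts after TMM scaling. A gene was called at a false discovery rate (FDR) of at most 0.05 with a change of more than 2-fold. Libraries held 9609295 to 13871592 counted pairs, so 3 counts equal 0.216 to 0.312 CPM, far below the lowest level of any of the 8 genes, the 3.35 CPM of Tgfbr2 in one Egr1KO library. The targeted genes did not fall in the libraries labelled as their knockouts: at 6 h, Egr1 lay at 2083 to 4463 CPM in Egr1KO against 1438 to 2046 CPM in WT, and Fosb lay at 1430 to 1778 CPM in FosBcKO against 767 to 1539 CPM in WT. Both alleles leave transcribed parts of the gene, so these gene-level counts do not check the labels, and Egr1KO and FosBcKO name the libraries so labelled. The 2 named lens epithelial markers, Pax6 and Foxe3, were present in every library. The Egr1KO replicate 1 library at 6 h stood apart: on the first principal component of log2 CPM (43.6% of variance) it scored -4.70, while the other 6 h libraries scored 23.56 or more and every 0 h library -39.40 or less. The changes of the 8 genes with time in Egr1KO are also given without it. Since it was picked as the 6 h library nearest the 0 h libraries, leaving it out tends to enlarge changes with time. A call gained that way is no independent evidence.

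At 0 h, none of the 8 genes was called between a knockout and WT. Tgfb2, the isoform that prevails in ocular fluids, had 527 ± 29.7 CPM in WT, 521 ± 4.78 CPM in Egr1KO and 503 ± 37.3 CPM in FosBcKO (SD, n = 3 each). After injury, Tgfb3 fell and Inhba rose in WT and in Egr1KO, while in FosBcKO neither passed the test. Tgfb1, Tgfb2, both receptors, Smad7 and Skil were not called in any comparison.

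**Figure D1:**
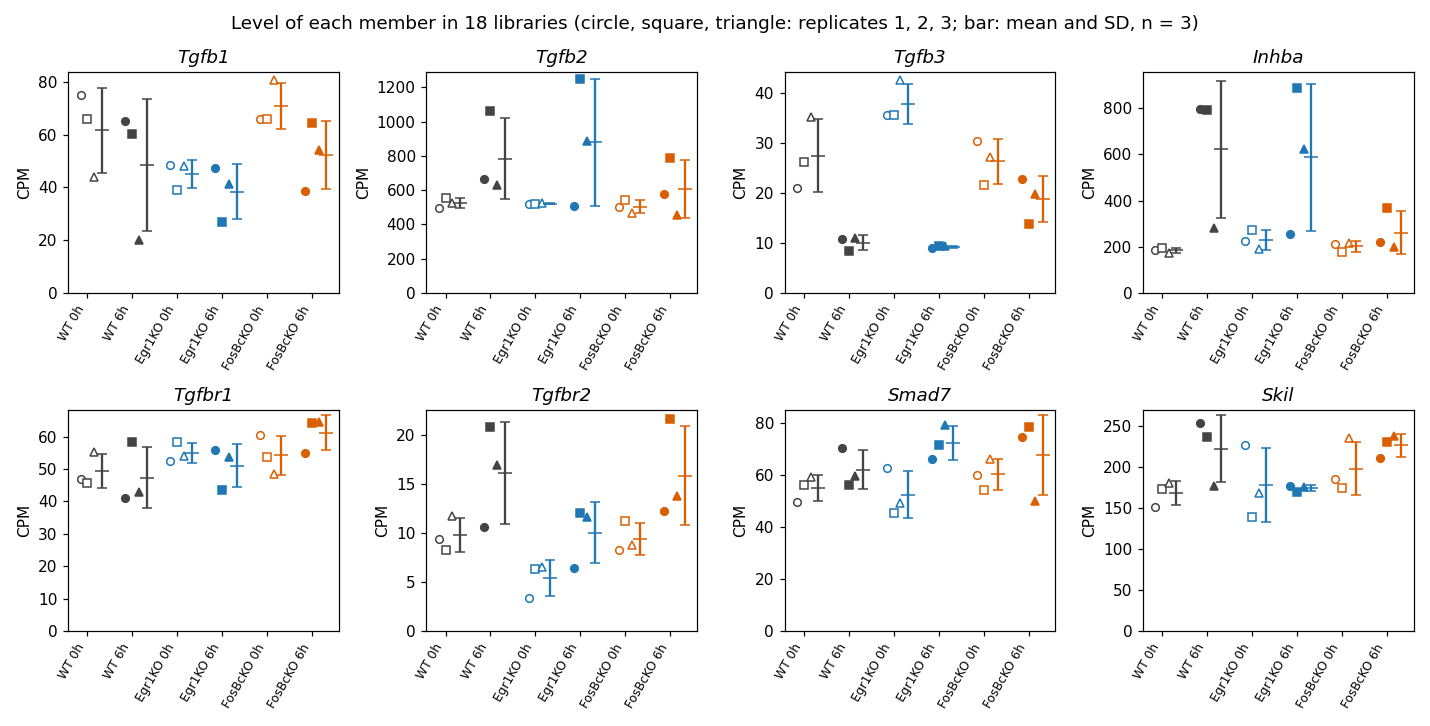
Level in CPM (vertical axes, from 0) of each of the 8 genes in the 18 libraries by group; circles, squares and triangles are replicates 1, 2 and 3, open at 0 h and filled at 6 h, and bars give the mean and SD (n = 3). Tgfb3 is lower in every 6 h library of WT (8.27 to 10.9 CPM) than in any 0 h library of WT (21.0 to 35.2 CPM), and the Inhba libraries at 6 h are widely spread.

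Tgfb3 encodes the TGF-beta isoform best known from palate development. In the 3 WT libraries it had 21.0, 26.1 and 35.2 CPM at 0 h and 10.8, 8.27 and 10.9 CPM at 6 h. Every 6 h library lay below every 0 h library, and the libraries did not overlap for 48.0% of genes tested in WT. The level fell 2.96-fold, a log2 fold change of -1.57 ± 0.24 (SE) with an edgeR FDR of 0.00353. Of the 8 genes, 2 were called in WT, 1 higher and 1 lower, where 17.1% of the 15440 genes tested were called, 13.5% higher and 3.65% lower.

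In Egr1KO, Tgfb3 had 35.5, 35.5 and 42.5 CPM at 0 h and 9.01, 9.30 and 9.32 CPM at 6 h. The groups did not overlap, as for 43.3% of genes tested, and the 6 h libraries lay close together (9.21 ± 0.176 CPM, SD, n = 3). The fall was 3.95-fold (log2 -1.98 ± 0.19 SE, edgeR FDR 0.00102), and without replicate 1 at 6 h it was -2.01 on the log2 scale. In Egr1KO 2 of the 8 genes were called, where 12.0% of 14586 genes tested were called, 9.28% higher and 2.69% lower. The Tgfb3 calls in WT and Egr1KO held with each library left out in turn.

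In FosBcKO the level of Tgfb3 was 30.3, 21.5 and 27.1 CPM at 0 h and 22.8, 13.8 and 19.7 CPM at 6 h. The 2 groups overlapped, since one 6 h library lay above one 0 h library. The log2 fold change was -0.50 with a 95% interval of -0.98 to -0.02 and an edgeR FDR of 0.123. None of the 8 genes was called in FosBcKO, where 13.1% of 15475 genes tested were called, and the exact test and DESeq2 called 0 of the 8 as well. By unadjusted p, 2 of the 8, Tgfb3 and Tgfbr2, lay under 0.05, where 37.3% of all genes tested did.

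Set against WT at 6 h, Tgfb3 was 2.03-fold higher in FosBcKO, with each FosBcKO library (13.8 to 22.8 CPM) above each WT library (8.27 to 10.9 CPM), a separation found for 21.8% of genes tested. The log2 difference was 1.02 ± 0.24 (SE) with an FDR of 0.0121 by edgeR's exact test. It was the 1 gene of the 8 called in this comparison, in which 5.41% of 16155 genes tested were called and 4.48% were called higher. The fold was close to the 2-fold minimum: with RLE size factors the log2 difference was 0.99, and the quasi-likelihood F-test gave an FDR of 0.0643, so neither called it. The call was also lost without any 1 of WT replicates 1, 2 and 3 or FosBcKO replicates 1 and 3 at 6 h (log2 0.93 to 1.10, FDR 0.0589 to 0.102).

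The difference between the responses of Tgfb3 was tested as an interaction. Its time change in FosBcKO was higher than that in WT by 1.01 on the log2 scale (SE 0.30, 95% interval 0.38 to 1.63), with an unadjusted p of 0.00327 and an edgeR FDR of 0.441 over 17469 genes. For Egr1KO the difference was -0.44 (95% interval -1.07 to 0.19, FDR 0.827). No gene was called by either interaction test, 0% of 17469, while 6.53% (Egr1KO) and 6.70% (FosBcKO) of genes, among them 0 and 2 of the 8, had an unadjusted p under 0.05, and DESeq2 called 0 of the 8 in either. In order of mean level, Tgfb3 ran from Egr1KO at 6 h (9.21 CPM) and WT at 6 h (9.99 CPM), whose libraries overlapped, through FosBcKO at 6 h (18.8 CPM) to FosBcKO (26.3 CPM), WT (27.4 CPM) and Egr1KO (37.8 CPM) at 0 h.

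Inhba encodes the inhibin beta A subunit, which dimerises to activin A. In WT it had 187, 195 and 173 CPM at 0 h and 796, 795 and 280.45 CPM at 6 h. Every 6 h library exceeded every 0 h library, where 48.0% of genes tested did not overlap, but replicate 3 rose far less than the other 2. The rise was 3.19-fold (log2 1.67 ± 0.40 SE, edgeR FDR 0.0207). The call was lost without any 1 of the 3 libraries at 0 h or of replicates 1 and 2 at 6 h, with log2 fold changes of 1.42 to 1.72 and FDRs of 0.0526 to 0.0746.

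In Egr1KO the level of Inhba was 223, 273 and 189 CPM at 0 h and 254, 886 and 624 CPM at 6 h. Replicate 1 at 6 h lay within the 0 h range, and the other 6 h libraries were far above it. The rise was 2.64-fold (log2 1.40 ± 0.38 SE, edgeR FDR 0.0368). Without Egr1KO replicate 1 at 6 h the log2 fold change was 1.73 with an FDR of 0.000124, still a call, and without any 1 of the other 5 libraries it was not (log2 1.06 to 1.51, FDR 0.0838 to 0.129). With no filter on low counts the FDR was 0.190.

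In FosBcKO, Inhba had 212, 175 and 216 CPM at 0 h and 219, 367 and 199 CPM at 6 h. Only replicate 2 stood clearly above the 0 h range. The log2 fold change was 0.40 (95% interval -0.20 to 0.99, edgeR FDR 0.302), and without that library it was -0.0456. At 6 h, Inhba in FosBcKO was 2.19-fold below WT (log2 -1.13 ± 0.47 SE, exact test FDR 0.165), and the groups overlapped through WT replicate 3. Without WT replicate 3, the library behind that overlap, the log2 difference was -1.54 with an FDR of 0.000232. Of the 6 fits with 1 library left out, this was the 1 that called Inhba. Over all 6 the log2 difference ran from -1.55 to -0.89, with FDRs up to 0.533. The interaction for FosBcKO was -1.33 on the log2 scale (95% interval -2.60 to -0.06, unadjusted p 0.0412, edgeR FDR 0.724), and that for Egr1KO was -0.29 (95% interval -1.56 to 0.97).

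**Figure D2:**
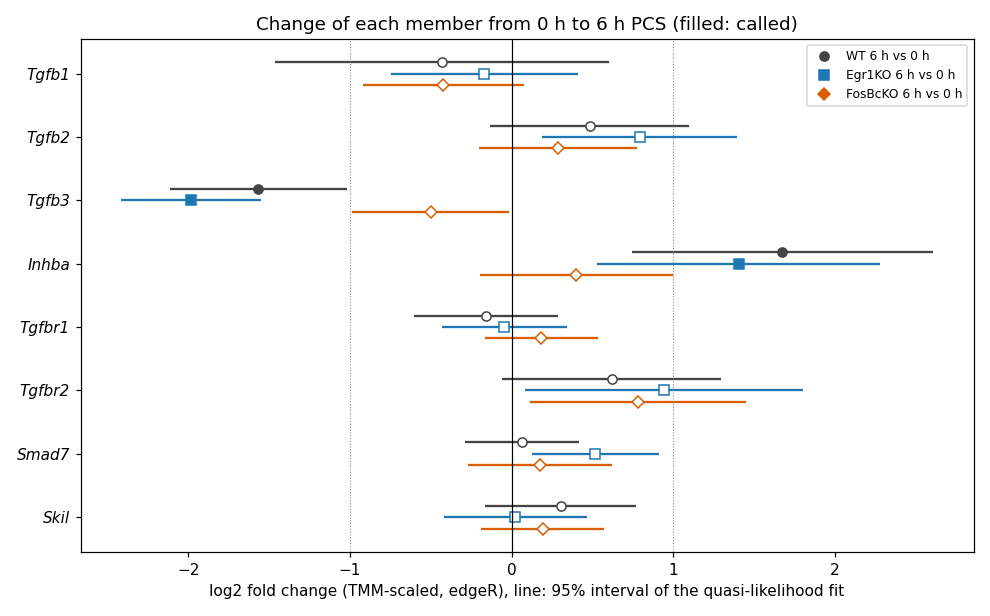
Log2 fold change from 0 h to 6 h PCS (horizontal axis, dotted lines at the 2-fold minimum) of each of the 8 genes in WT, Egr1KO and FosBcKO; lines are 95% intervals of the quasi-likelihood fit with 3 libraries a group, and filled symbols are called. Tgfb3 (-1.57 in WT, -1.98 in Egr1KO) and Inhba (1.67 and 1.40) are filled in WT and Egr1KO, and no symbol of FosBcKO is filled.

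Tgfb2 in WT had 496, 556 and 527 CPM at 0 h and 665, 1059.7 and 629 CPM at 6 h. All 6 h libraries were above all 0 h libraries, where 48.0% of genes tested in WT did not overlap. The log2 fold change of 0.48 (95% interval -0.13 to 1.10) had an edgeR FDR of 0.211. In Egr1KO it had 521, 516 and 526 CPM at 0 h and 504, 1247 and 885 CPM at 6 h. Replicate 1 at 6 h lay below the 0 h libraries, and the others lay above them. With that library the log2 fold change was 0.79 (95% interval 0.19 to 1.39, edgeR FDR 0.0653), and without it 1.03 with an FDR of 0.000772, which was a call. Without any 1 of the other 5 libraries Tgfb2 was not called (log2 as low as 0.53, FDR up to 0.173).

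FosBcKO had 503, 540.2 and 466 CPM of Tgfb2 at 0 h and 579, 785 and 452 CPM at 6 h. The libraries overlapped, with replicate 3 at 6 h the lowest of the 6 (log2 fold change 0.29, 95% interval -0.20 to 0.78, edgeR FDR 0.373). Without replicate 2 at 6 h the value was -0.0589. The mean of Tgfb2 at 6 h was highest in Egr1KO (879 ± 371 CPM), followed by WT (784 ± 239 CPM) and FosBcKO (605 ± 168 CPM, SD, n = 3 each), and neither knockout differed from WT beyond this spread (FDR 0.869 and 0.849 by edgeR's exact test).

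Tgfb2 and Inhba shared their lowest libraries after injury. Within each genotype at 6 h, the library lowest in Tgfb2 was also lowest in Inhba: replicate 3 in WT, replicate 1 in Egr1KO and replicate 3 in FosBcKO. In both knockouts replicate 2 was highest for both genes. At 0 h the libraries lay close together for both genes.

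**Figure D3:**
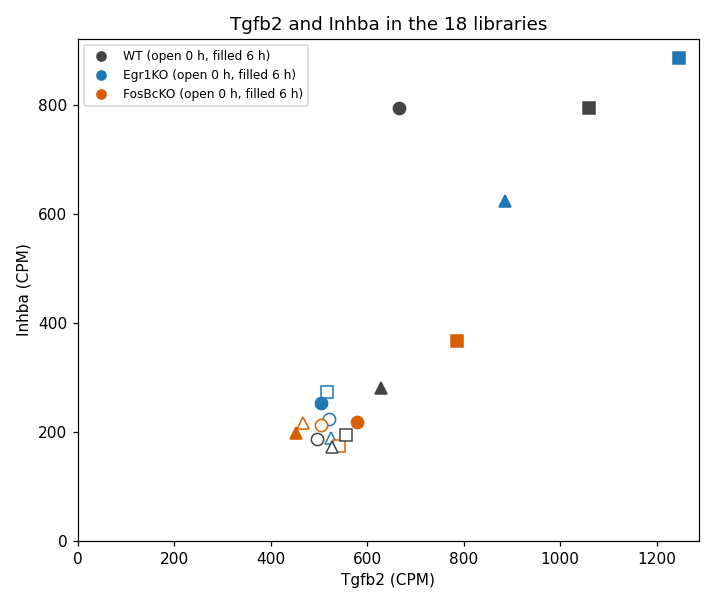
Inhba against Tgfb2, both in CPM, in each of the 18 libraries; colours mark genotype, open symbols 0 h, filled symbols 6 h, and circles, squares and triangles replicates 1, 2 and 3. The 0 h libraries form one group at 466 to 556 CPM of Tgfb2 and 173 to 273 CPM of Inhba, and the 6 h libraries spread up to 1247 CPM of Tgfb2 and 886 CPM of Inhba.

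Tgfb1, the most widely studied isoform, had 75.2, 66.1 and 43.9 CPM in WT at 0 h and 65.2, 60.5 and 19.9 CPM at 6 h. The groups overlapped, and replicate 3 was the lowest library at both times. The log2 fold change was -0.43 (95% interval -1.46 to 0.60, edgeR FDR 0.506). In FosBcKO it had 65.9, 65.8 and 80.9 CPM at 0 h and 38.6, 64.4 and 54.2 CPM at 6 h. Every FosBcKO library at 6 h was below every one at 0 h, a separation that 42.9% of genes tested showed, and the change was not called (log2 -0.42, 95% interval -0.92 to 0.07, edgeR FDR 0.195). Egr1KO ranged from 39.2 to 48.7 CPM at 0 h and from 26.7 to 47.4 CPM at 6 h (log2 -0.17, 95% interval -0.75 to 0.41, and -0.40 without replicate 1 at 6 h). Its mean at 0 h, 45.3 ± 5.31 CPM, was the lowest of the 3 genotypes, beside 61.8 ± 16.1 CPM in WT and 70.9 ± 8.67 CPM in FosBcKO (SD, n = 3), and the difference from WT was not called (FDR 0.821 by edgeR's exact test).

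Tgfbr2, the type II receptor that binds the ligand and activates the type I receptor, had a higher mean at 6 h in each genotype without passing the test. In WT it had 9.38, 8.27 and 11.7 CPM at 0 h and 10.6, 20.8 and 17.0 CPM at 6 h, with an overlap of the lowest 6 h library only (log2 0.62, 95% interval -0.06 to 1.30, edgeR FDR 0.152). In Egr1KO it had 3.35, 6.34 and 6.56 CPM at 0 h and 6.43, 12.0 and 11.6 CPM at 6 h. Here too only the lowest 6 h library, replicate 1, overlapped with the 0 h libraries. The log2 fold change was 0.94 (95% interval 0.08 to 1.80, edgeR FDR 0.107), and without that library 1.14 with an FDR of 0.0374, which was a call. Without any 1 of the other 5 libraries Tgfbr2 was not called (log2 as low as 0.68, FDR up to 0.273).

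In FosBcKO, Tgfbr2 had 8.21, 11.2 and 8.73 CPM at 0 h and 12.2, 21.6 and 13.8 CPM at 6 h. Every 6 h library was above every 0 h library, where 42.9% of genes tested did not overlap (log2 0.78, 95% interval 0.11 to 1.45, edgeR FDR 0.0871). At 0 h all Egr1KO libraries lay below all WT libraries, a log2 difference of -0.83 (95% interval -1.52 to -0.14) that was not called (FDR 0.643 by edgeR's exact test). Tgfb3 at 0 h was higher in all Egr1KO than in all WT libraries (log2 0.49, FDR 0.643), by a narrow margin of 35.5 against 35.2 CPM. Of all genes tested in that comparison, 16.5% did not overlap and 0.410% were called.

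Tgfbr1, the type I receptor kinase that phosphorylates the Smads, lay in a narrow range. Its 18 libraries lay between 41.0 and 64.6 CPM, and the group means between 47.3 and 61.2 CPM. The log2 fold changes with time were -0.16 in WT (95% interval -0.60 to 0.29), -0.05 in Egr1KO (95% interval -0.43 to 0.34, and -0.17 without replicate 1 at 6 h) and 0.18 in FosBcKO (95% interval -0.17 to 0.53). Each interval lies within a 2-fold change in either direction. The largest genotype difference, FosBcKO over WT at 6 h, was 0.50 on the log2 scale (FDR 0.363 by edgeR's exact test).

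Smad7 encodes the inhibitory Smad that blocks the activated receptor. In WT it had 49.8, 56.2 and 59.3 CPM at 0 h and 70.5, 56.1 and 59.6 CPM at 6 h, overlapping groups with a log2 fold change of 0.07 (95% interval -0.29 to 0.42). In Egr1KO it had 62.9, 45.5 and 49.2 CPM at 0 h and 66.1, 71.7 and 79.2 CPM at 6 h. All 6 h libraries were above all 0 h libraries in Egr1KO, where 43.3% of genes tested did not overlap. The change was not called (log2 0.52, 95% interval 0.12 to 0.91, edgeR FDR 0.0648). Without replicate 1 at 6 h the FDR of Smad7 was 0.0441 and the log2 fold change 0.53, under the 2-fold minimum. In FosBcKO it ranged from 54.4 to 66.3 CPM at 0 h and from 50.2 to 78.5 CPM at 6 h (log2 0.17, 95% interval -0.27 to 0.62).

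Skil encodes SnoN, a corepressor that binds Smads. In WT it had 152, 173 and 181 CPM at 0 h and 255, 237 and 177 CPM at 6 h. Replicates 1 and 2 at 6 h were above all 0 h libraries and replicate 3 was among them (log2 0.30, 95% interval -0.16 to 0.77, edgeR FDR 0.298). The Egr1KO libraries spread from 139 to 228 CPM at 0 h and lay close together at 6 h, from 170.2 to 177 CPM (log2 0.02, 95% interval -0.42 to 0.46, and -0.04 without replicate 1 at 6 h). FosBcKO ranged from 174 to 236 CPM at 0 h and from 211 to 238 CPM at 6 h (log2 0.19, 95% interval -0.19 to 0.57).

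**Figure D4:**
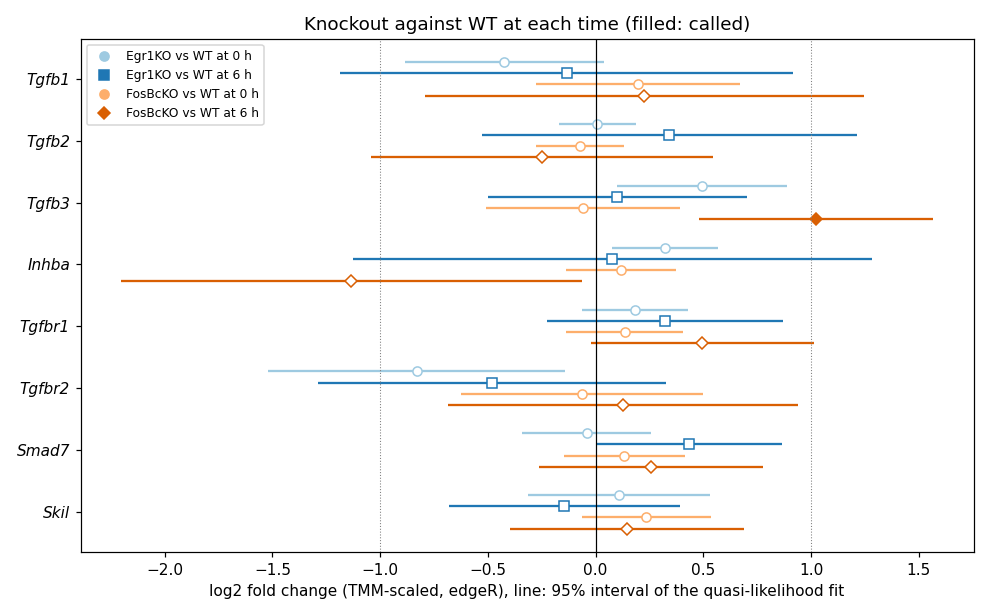
Log2 fold change of each of the 8 genes in each knockout against WT at 0 h and at 6 h (horizontal axis, dotted lines at the 2-fold minimum); lines are 95% intervals of the quasi-likelihood fit with 3 libraries a group, and filled symbols are called. The 1 filled symbol is Tgfb3 in FosBcKO at 6 h (1.02), and Inhba in FosBcKO at 6 h lies at -1.13 unfilled.

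Against WT, none of the 8 genes was called in Egr1KO at 6 h, where 0.736% of 15618 genes were called, or in FosBcKO at 0 h, where 0.295% of 14556 were. At an unadjusted p under 0.05 the exact test held 3 of the 8 in Egr1KO at 0 h (Tgfb3, Tgfbr2 and Inhba) beside 6.40% of all genes, 0 in Egr1KO at 6 h beside 9.67% and 0 in FosBcKO at 0 h beside 5.62%. The quasi-likelihood F-test and DESeq2 also called 0 of the 8 in these 3 comparisons. At 0 h the FosBcKO differences from WT ran from -0.07 (Tgfb2) to 0.24 (Skil) on the log2 scale. In Egr1KO at 6 h they ran from -0.48 (Tgfbr2) to 0.44 (Smad7), and without Egr1KO replicate 1 from -0.34 (Tgfb1) to 0.61 (Tgfb2), again with 0 called. Both knockouts were compared with the same WT libraries, so these comparisons are not independent. The median log2 fold change of the 8 genes with time was 0.18 in WT, 0.27 in Egr1KO and 0.19 in FosBcKO, beside -0.02, 0.00299 and 0.05 over all genes tested.

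Levels of markers of other cells also differed between libraries and times, and their part in the changes of the 8 genes was not tested. Summed levels of 3 of 5 fibroblast and keratocyte markers were 137 to 233 CPM at 0 h and 36.4 to 128 CPM at 6 h in WT, 185 to 229 and 50.8 to 242 CPM in Egr1KO, and 209 to 294 and 81.7 to 266 CPM in FosBcKO, overlapping between times in both knockouts. Most of this sum was Pdgfra (mean 175 CPM in WT at 0 h, beside 3.37 CPM of Dcn and 5.93 CPM of Col1a1), a receptor gene that LECs also express. The 2 lens epithelial markers summed to 703 to 814 CPM at 0 h and 374 to 506 CPM at 6 h in WT. They summed to 668 to 699 and 288 to 767 CPM in Egr1KO, and to 739 to 946 and 526 to 805 CPM in FosBcKO. At 6 h, the library lowest for Tgfb2 and Inhba held the highest sum in Egr1KO (767 CPM, replicate 1) and FosBcKO (805 CPM, replicate 3). In WT that library held the lowest sum (374 CPM, replicate 3). The photoreceptor gene Sag was at 75.3 to 239 CPM at 0 h and 1003 to 2507 CPM at 6 h in WT, and 3 of 4 endothelial markers summed to 3.02 to 7.40 CPM and 47.9 to 117 CPM. Both were also higher at 6 h in the knockouts. Sag went from 85.3 to 220 CPM up to 462 to 1564 CPM in Egr1KO, and from 53.8 to 219 CPM up to 329 to 950 CPM in FosBcKO. The endothelial sums were 3.64 to 5.28 and 10.3 to 29.4 CPM in Egr1KO, and 8.19 to 14.0 and 29.9 to 96.2 CPM in FosBcKO. At 6 h, 8 of 10 leukocyte markers summed to 92.5 to 99.2 CPM in FosBcKO and 23.0 to 38.1 CPM in WT, the comparison in which Tgfb3 was called. In Egr1KO at 6 h they summed to 114 CPM in replicate 1 and to 41.2 and 49.5 CPM in replicates 2 and 3. Cd74 was the largest part of the leukocyte sum in FosBcKO at 6 h (mean 45.9 CPM, beside 8.76 CPM in WT). Of these markers, Cd68 alone had a lower mean in FosBcKO (3.85 CPM) than in WT (6.07 CPM) at 6 h. The remaining lists, pigment cells (4 of 5 markers) and corneal epithelium (2 of 2), summed at 6 h to 35.5 to 173 and 2.48 to 190 CPM in WT, 94.9 to 311 and 0.753 to 6.04 CPM in Egr1KO, and 164 to 355 and 0.518 to 299 CPM in FosBcKO. At 0 h the pigment sums were 14.0 to 94.4 CPM in WT, 15.2 to 50.2 CPM in Egr1KO and 29.0 to 72.1 CPM in FosBcKO. Pigment sums of the 2 times overlapped in WT and not in the knockouts. None of these named markers was at 0 in all libraries of a group, and none of 6 lens fiber markers had an ID with a name. In bulk RNA of pooled capsules, fewer cells of a type and less RNA per cell cannot be told apart.

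Other genes of the pathway were read from lists of 59 genes, of which 34 could be tied to an ID. Names came from ID and symbol pairs that the study prints for part of its genes, in sheets ordered by p-value, so genes that changed are over-represented and the counts are not shares of the pathway. None of the 5 signal-carrying Smads and partners had such a name. In WT, 5 of 32 tested rose and 3 fell, where 13.5% of all genes tested were called higher and 3.65% lower. In Egr1KO 8 of 33 rose and 2 fell, beside 9.28% and 2.69% of all genes, and in FosBcKO 8 of 34 rose and 1 fell, beside 11.2% and 1.90%. Without replicate 1 at 6 h, 13 were called in Egr1KO, and with 1 library left out in turn the count ran from 4 to 13.

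Thbs1, a thrombospondin that can free latent TGF-beta, lay at 12.7 to 50.4 CPM in WT at 0 h and 195 to 348 CPM at 6 h (log2 2.96 ± 0.49 SE, edgeR FDR 0.00538). It was also called higher in Egr1KO (log2 3.56) and FosBcKO (log2 2.90). Also called higher in each genotype were Vasn, whose membrane protein binds TGF-beta (log2 2.25, 1.76 and 1.15 in the same order), and Tgif1, a corepressor of Smads (1.38, 1.70 and 1.32). With no filter on low counts, Thbs1 was not called in any genotype (FDR 0.0536, 0.0917 and 0.101). In FosBcKO, Thbs1 was not called without replicate 2 or 3 at 0 h or replicate 1 at 6 h (FDR 0.0655 to 0.111), Vasn without replicate 2 at 0 h or 1 or 2 at 6 h (log2 0.88 to 1.07), and Tgif1 without replicate 2 at 6 h (log2 0.96). In Egr1KO, Thbs1 was not called without replicate 2 or 3 at 0 h or replicate 2 at 6 h (FDR 0.0510 to 0.0628).

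Acta2, the smooth muscle actin that marks myofibroblasts, fell in all 3 genotypes, from 211 to 321 CPM down to 38.3 to 97.7 CPM in WT (log2 -2.15 ± 0.38 SE, edgeR FDR 0.00662). The log2 changes were -1.71 in Egr1KO and -1.21 in FosBcKO, where the call was lost without any 1 of the 0 h libraries or replicate 1 at 6 h (log2 -1.33 to -0.95). The fall of Acta2 in WT differs from the paper's initial WT comparison, which lists it as somewhat higher at 6 h without a significant change. The paper deposited that comparison apart from its knockout comparisons, so the values set side by side need not come from the same libraries. Why the values differ was not tested. Itgb8, an integrin subunit that takes part in freeing latent TGF-beta, fell in WT (-1.29) and Egr1KO (-1.04). Its call was lost in WT without replicate 3 at 0 h or replicate 2 or 3 at 6 h (log2 -1.18 to -0.96), and in Egr1KO without replicate 1 or 3 at either time (log2 -1.07 to -0.80). Pmepa1 (1.25) and Klf10 (1.30), an early target of TGF-beta, were called higher in WT, and Dcn, the TGF-beta binding proteoglycan decorin, lower (-2.28) at 0.471 to 5.55 CPM. The calls of Klf10 and Dcn were lost in one fit of all 18 libraries (FDR 0.0568 and 0.0597). In FosBcKO the calls also took in Inhbb, Mmp14, Fbn1, Tgfbi and Tnc, each higher at 6 h. In Egr1KO they took in Ltbp1, Mmp14, Tgfbi, Fn1 and Itgb6, each higher at 6 h, with Itgb6 near the level of 3 counts at 0 h (0.104 to 0.384 CPM, and 1.13 to 1.39 CPM at 6 h). Of these, Ltbp1 was lost without replicate 1 or 3 at 0 h or 2 or 3 at 6 h, Mmp14 in Egr1KO without replicate 1 or 3 at 0 h or 3 at 6 h, Fn1 without replicate 2 or 3 at 0 h or 3 at 6 h, Tgfbi in Egr1KO without replicate 1 at 0 h, and Itgb6 without any 1 library (FDR for these 0.0375 to 0.190, with the lowest, for Ltbp1, under the 2-fold minimum). In FosBcKO, Inhbb was lost without any 1 of the 0 h libraries or replicate 2 at 6 h (FDR 0.0529 to 0.116), Tnc without replicate 2 or 3 at 0 h or 1 at 6 h (0.0538 to 0.0577), and Fbn1, under the 2-fold minimum, without replicate 2 at 0 h or 1 or 2 at 6 h (log2 0.90 to 0.94). In one fit of all 18 libraries Itgb6 and Mmp14 in Egr1KO (FDR 0.153 and 0.0728) and Mmp14, Fbn1, Tgfbi and Tnc in FosBcKO (0.0623 to 0.407) were not called, and with no filter on low counts Itgb6 (0.189) and Tgfbi (0.0683) in Egr1KO were not. Whether these pathway genes differed in response was tested as an interaction, and none of 34 was called for either knockout.

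Between genotypes, none of 32 pathway genes tested was called at 0 h in either knockout. The names came in part from the study's sheets for these same comparisons, so the counts here are not shares of the pathway either. At 6 h, 7 of 34 were called higher in FosBcKO than in WT by edgeR's exact test, beside 4.48% of all genes tested: Inhbb, which encodes the beta B subunit of activin B (log2 1.66), the decoy receptor gene Bambi (1.90), the latent TGF-beta binding protein genes Ltbp1 (1.88) and Ltbp3 (1.14), Itgb8 (1.04), the membrane protease gene Mmp14 (1.90) and the fibrillin gene Fbn1 (3.63). Fbn1 lay at 1051 to 1395 CPM in FosBcKO and at 37.1 to 148 CPM in WT at 6 h, and it was not called in one fit of all 18 libraries (FDR 0.0567). At 0 h, Fbn1 spread widely in WT, from 12.0 to 546 CPM, and lay at 562 to 632 CPM in FosBcKO. Without WT replicate 2 or 3 or FosBcKO replicate 3 at 6 h, and by the quasi-likelihood F-test, Itgb8 was not called (log2 0.83 to 1.04, FDR 0.0905 to 0.146). In Egr1KO at 6 h, set against the same WT libraries, 2 of 34 were called, Ltbp1 (1.41) and Fbn1 (1.87), and by the quasi-likelihood F-test 0 were. Without WT replicate 1 or 3 or Egr1KO replicate 3, Ltbp1 was not called (FDR 0.0562 to 0.181), nor was Fbn1 without Egr1KO replicate 3 (0.0909), and neither was with library totals alone (0.0591 and 0.0998) or in one fit of all 18 libraries (0.105 and 0.386). Inhbb, which shares the activin branch with Inhba, had 25.9 to 53.7 CPM in FosBcKO and 11.3 to 14.1 CPM in WT at 6 h, while Inhba was lower in FosBcKO without being called.

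**Figure D5:**
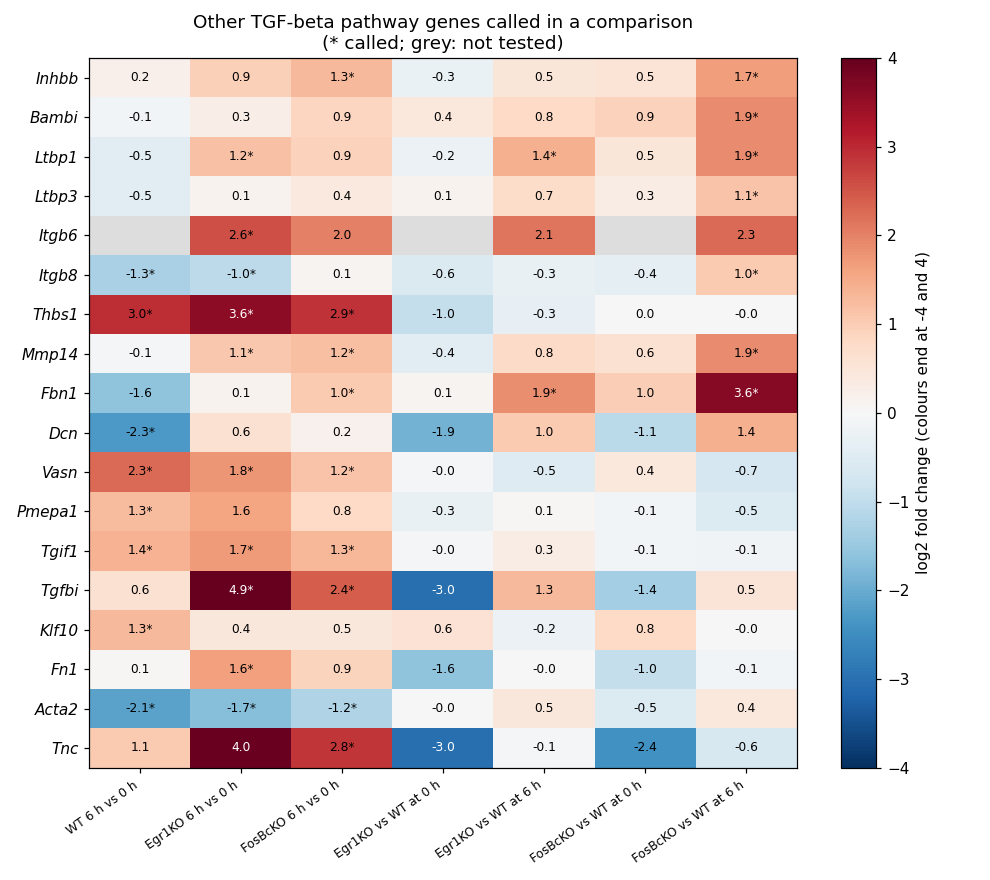
Log2 fold change (colour and printed number, colours end at -4 and 4) of the 18 other pathway genes called in at least 1 comparison, by comparison; an asterisk marks a call and grey a gene not tested. Thbs1, Vasn and Tgif1 are called higher and Acta2 lower at 6 h in all 3 genotypes, and the FosBcKO against WT column at 6 h holds 7 calls, all higher.

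For each of the 8 genes, the named gene with the most similar pattern of log2 CPM over the 18 libraries was sought among 5673. The correlations are given as a description, since the libraries share time and genotype groups. The nearest was Palld for Tgfb2 (Pearson r 0.987), Ywhag for Inhba (0.956), Secisbp2l for Tgfb3 (0.946), Foxe3 for Tgfb1 (0.895), Il15ra for Tgfbr2 (0.879), Pofut2 for Smad7 (0.840), Rara for Skil (0.838) and Plcb3 for Tgfbr1 (0.834). After each library's group mean was taken off, the r for Tgfb2 with Palld was 0.979 and that for Tgfb3 with Secisbp2l was 0.622.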

How the data were processed

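The authors sequenced stranded, ribodepleted paired-end libraries, aligned reads with Hisat2 and ran HTSeq-count (union mode). Deposited files give unnormalized counts of pairs for each Ensembl gene. The build is GRCm38 in the methods and GRCm39 in the submitters' processing notes, so no coordinates are given. HTSeq's 5 summary lines (34.4% to 48.0% of pairs) were left out.

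Tests used edgeR 4.0.16 in R 4.3.3 with filterByExpr, TMM and robust dispersions, on the 6 libraries of each contrast: the quasi-likelihood F-test for 6 h against 0 h, the exact test for knockout against WT, and an interaction over all 18 libraries. P-values measure the spread between pools. Standard errors and 95% intervals come from the quasi-likelihood fit. CPM is the count per 1000000 counted pairs. The F-test and exact test were tested on simulated data.

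The genes and lists were chosen with earlier results of these data known. Every one of the 8 genes, each one's nearest gene in pattern, and each called pathway gene was named, except 1 listed gene that is not reported here and was left out of the lists. Same-numbered WT libraries deviated together (r 0.102 to 0.247, every pair over 0.1). The WT values given are from the fit without a replicate block, and with the block Tgfb3 (log2 -1.54, FDR 0.00189) and Inhba (1.51, FDR 0.00733) were called too. Which pools share animals was not stated. Alternatives included DESeq2 1.42.0. No sequence or gene length was used here.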

Additional observations from a re-analysis of the deposited data

How the results depend on the processing

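Of 1312 alternatives for the 72 values of the 8 genes, 1282 stayed on their side of the threshold with no reversal counted, 24 lost a call, 4 gained one and 2 reversed. Most of the 72 values were not calls and so had no call to lose. With 10 other settings and with 6 libraries left out in turn, losses were 0 and 5 for Inhba in WT and 2 and 5 for Inhba in Egr1KO. For Tgfb3 in FosBcKO against WT at 6 h they were 7 and 5. A change of sign was counted only where a call was made or the value exceeded its SE, so smaller changes of sign are among the 1282. The 2 that reversed were Tgfb2 (-0.0589) and Inhba (-0.0456) with time in FosBcKO without replicate 2 at 6 h, and with 1 library left out they reached 0.40 and 0.51. Genes called in Egr1KO with time went from 2 to 1 with no filter on low counts and with library totals alone (Inhba FDR 0.190 and 0.0517). In FosBcKO against WT at 6 h the count went from 1 to 0 with RLE size factors, no filter, DESeq2, the replicate block, library totals, the F-test and one fit of 18 libraries (Tgfb3 log2 0.91 to 1.02). RLE, DESeq2 and the single fit kept an FDR under 0.05 (0.0184, 0.00912 and 0.0224) and missed the fold minimum. The interaction for FosBcKO went from 0 to 1 with no filter (Inhba -1.35, FDR 0.000551). With 1 library left out the counts with time were 1 to 2 for WT and 1 to 4 for Egr1KO, and that for FosBcKO against WT at 6 h was 0 to 1. The causes were not tested.

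With the replicate block, Tgfb3 in FosBcKO against WT was not called (FDR 0.157), and no other call among the 8 genes was lost. Between genotypes the block was fitted with the quasi-likelihood F-test in place of the exact test. Without the block, that F-test had already lost this Tgfb3 call (FDR 0.0643). Among pathway genes with time, the block ended the calls of Thbs1 (FDR 0.152) and Inhbb (0.0830) in FosBcKO and of Itgb6 (0.0810) and Itgb8 (0.0523) in Egr1KO. Against WT at 6 h, the blocked F-test left Ltbp1 of 7 in FosBcKO (Fbn1 FDR 0.0518) and 0 of 2 in Egr1KO. The F-test without the block already lost Itgb8 in FosBcKO (FDR 0.0905), and Ltbp1 (0.426) and Fbn1 (0.528) in Egr1KO. Outside WT the replicate numbers were not shown to pair libraries (r 0.0198 to 0.181 with time, 3 of 6 pairs over 0.1, and -0.259 to 0.198 between genotypes). Scaling by library totals, chosen after seeing the data, moved the median of all genes to -0.18 and -0.12 log2 for Egr1KO and FosBcKO against WT at 6 h and to -0.12 in the Egr1KO interaction.

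Called pathway genes ranged over all alternatives with time from 5 to 9 (WT), 4 to 14 (Egr1KO) and 3 to 13 (FosBcKO), and at 6 h against WT from 0 to 3 in Egr1KO and 1 to 8 in FosBcKO. With no filter, 5 were called in each interaction. Of 576 alternatives for 36 called values of single pathway genes, 96 lost the call and 0 reversed. Dcn and Klf10 in WT were each lost without 3 of 6 libraries taken out in turn. The lowest count of the 8 genes in a library was 41 (Tgfbr2), and the part of depth in changes that were not called was not tested.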
